A study of Homo sapiens with 4 samples.

Results

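Splicing factor genes were taken as the autosomal protein-coding genes whose symbols begin with SNRP, HNRNP or U2AF, or with SRSF, PRPF, SF3A or SF3B and a number, together with RBM39. The rule found 74 genes among 19122 autosomal protein-coding genes of the RefSeq table: 25 HNRNP, 12 SRSF, 12 SNRP, 12 PRPF, 9 SF3 and 3 U2AF genes and RBM39. Each was examined for peaks of BAF45D within 1 kb of either end of the gene, called gene-end peaks here. RBM39 entered by name, and it was already known from earlier results on these libraries as one of the strongest sites shared by both cell types.

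BAF45D, the product of DPF2, belongs to the BAF complex, which remodels chromatin, and its binding was profiled by CUT&Tag, in which an antibody (rabbit anti-BAF45D) brings a transposase to the DNA beside its target. The ESC group held 2 libraries (ESC1 and ESC2) of H9, an established human embryonic stem cell line grown on Matrigel in mTeSR1. The NSC group held 2 libraries (NSC1 and NSC2) of spinal cord neural stem cells derived from H9. The question was where BAF45D sits before and after that change of cell type. Per the labels' protocols, neural induction ran for 10 days in N2B27 with LDN-193189, SB431542, CHIR-99021, FGF2, FGF8 and DAPT, followed by maintenance medium with SB-431542, CHIR-99021 and Hh-Ag 1.5 and then by FGF2 and EGF. Y-27632 was added at passages. All 4 libraries thus come from 1 line with no genetic change named, each from 100000 cells, and the labels do not say whether the libraries of a cell type came from separate cultures.

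Splicing removes introns from pre-mRNA through the spliceosome, which assembles from small nuclear ribonucleoproteins (snRNPs) and many further proteins. SNRP genes encode snRNP proteins, SF3 and U2AF proteins recognise the branch site and the 3′ splice site, and PRPF proteins serve mainly in the U4/U6.U5 particle and in catalysis. SR proteins (SRSF genes) mostly favour the use of nearby splice sites, hnRNP proteins often oppose it, and the balance between these regulators is known to shift as stem cells take on a neural fate.

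The deposited lists had very different lengths, and depth ran the other way. After summits of 1 interval were joined, ESC1 held 4054 autosomal peaks, ESC2 12159, NSC1 28887 and NSC2 23942, from 20734829, 18953543, 5566407 and 5377831 tags. The weakest peak listed had a pileup of 8, 7, 4 and 4 in these libraries, so the signal needed for a peak differed between them. Of 10 markers of spinal cord neural stem cells, 8 had a gene-end peak in each NSC library and none in either ESC library, while 8 embryonic stem cell markers gave 3, 4, 2 and 2 in ESC1, ESC2, NSC1 and NSC2. POU5F1 and NANOG, which define pluripotent cells, had no gene-end peak in any library. None of 4 mesoderm and endoderm markers had one in any library, and of 3 neuronal markers 1 had one in both NSC libraries.

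Most splicing factor genes carried BAF45D at a gene end in NSC, and more of them did so in NSC than in ESC. A gene-end peak was called at 61 of the 74 genes in NSC1 (82.4%) and at 55 in NSC2 (74.3%), beside 43.5% and 38.7% of all autosomal protein-coding genes. In ESC2 it was called at 43 genes (58.1%, beside 23.2% of all), and in ESC1 at 16 (21.6%, beside 6.8%). The share of splicing factor genes stood above that of all genes in each of the 4 libraries. By cell type the mean was 58 ± 4.24 genes in NSC and 29.5 ± 19.1 in ESC (SD, n = 2 libraries each), a difference of 28.5. Both NSC libraries lay above both ESC libraries, with p = 0.33 in the exact two-sided permutation test, the smallest value that 2 against 2 libraries can give. The spread between ESC1 and ESC2 was of the same order as the difference between cell types. When each list was shortened to its 4054 strongest peaks, the counts were 16, 25, 26 and 25 in ESC1, ESC2, NSC1 and NSC2, and the difference fell to 5. At that length all genes were at 6.8%, 13.2%, 11.4% and 10.9%. List length thus moved with cell type in the deposited lists.

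**Figure D1:**
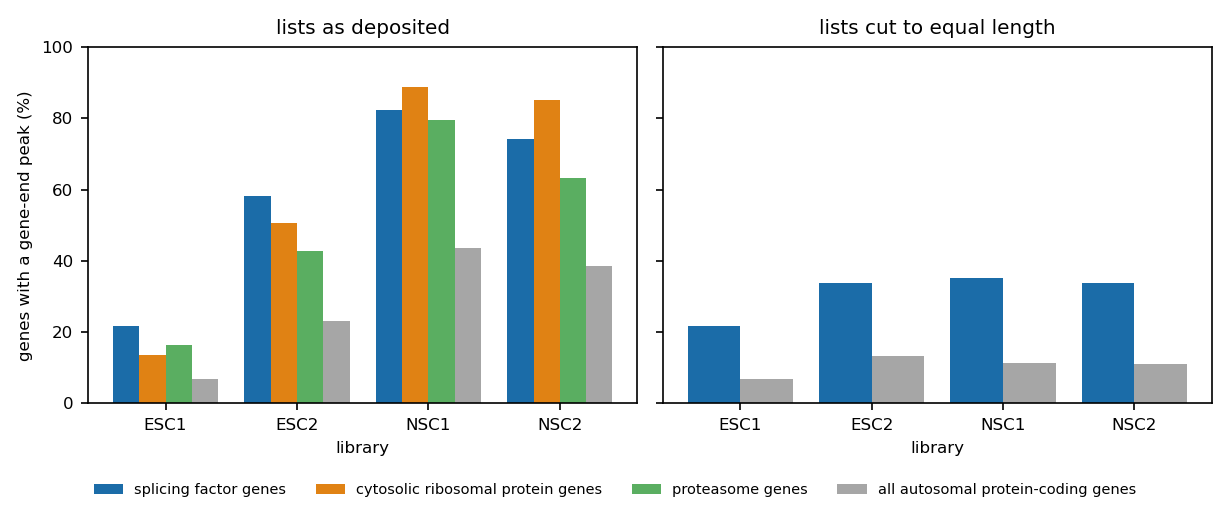
Percent of genes with a BAF45D peak within 1 kb of a gene end (vertical axis) in each library (horizontal axis), for the splicing factor genes and, as bars of other colours, 2 other housekeeping gene sets and all autosomal protein-coding genes. With the lists as deposited (left) the splicing factor bar rises from 21.6% in ESC1 to 82.4% in NSC1; with 4054 peaks per list (right, splicing factor and all genes only) ESC2, NSC1 and NSC2 stand close together.

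The genes called in ESC were nearly all genes called in NSC as well, and most ESC genes of the whole genome were too. Of the 16 members called in ESC1 and the 43 in ESC2, 16 and 41 were called in both NSC libraries. Over all genes these were 1162 of 1300 and 3576 of 4429, with far longer lists in NSC. A gene-end peak in all 4 libraries was found at 15 genes (20.3%, beside 6.01% of all genes), and 26 more had one in ESC2 and both NSC libraries but not in ESC1 (35.1%, beside 12.7%). Peaks in each NSC library and neither ESC library, called NSC-only, were found at 12 genes (16.2%), near the 16.4% of all genes and so not a result about splicing factor genes in the deposited lists. Among peaks of −log10 q of at least 5 (q is the authors' adjusted p-value of a peak), 19 were NSC-only (25.7%, beside 11.1% of all genes) and 9 were called in all 4 libraries (12.2%, beside 3.06%). At this cut NSC-only takes in genes with a weaker listed ESC peak, such as HNRNPDL, SRSF2 and U2AF2 at 3.26, 2.02 and 3.08 in ESC2. The −log10 q of separate lists shares no scale, so this share does not show absence of a peak in ESC. None of the 74 was ESC-only, a class that held 0.251% of all genes. No gene-end peak was called at 12 genes (16.2%, beside 50.5%), or at 7 of 69 (10.1%) without 5 near-identical gene copies, and 9 genes had other combinations. Of the 54 genes called in both NSC libraries, 41 were called in ESC2 (75.9%) and 16 in ESC1 (29.6%), beside 53.2% and 17.3% of the 6722 genes of the genome called in both NSC libraries. The classes rest on single ESC libraries: without ESC1, 41 genes had a peak in every remaining library, and without ESC2, 38 were NSC-only. With 4054 peaks per list, 7 genes were NSC-only (9.46%, beside 2.19% of all genes) and 3 were ESC-only (4.05%, beside 1.27%). These 3 were SNRPE, SRSF5 and PRPF31, named after their values were seen, and in the full lists each is called in all 4 libraries.

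Other genes that nearly all cells use showed the same order of libraries, and so did all genes. The latter stood at 6.8%, 23.2%, 43.5% and 38.7% in ESC1, ESC2, NSC1 and NSC2. Of 81 cytosolic ribosomal protein genes, 13.6% and 50.6% had a gene-end peak in ESC1 and ESC2, and 88.9% and 85.2% had one in NSC1 and NSC2. Of 49 proteasome genes the shares were 16.3%, 42.9%, 79.6% and 63.3%. Splicing factor genes therefore had the highest share of the 3 sets in both ESC libraries and ribosomal protein genes in both NSC libraries; these differences between sets were not tested. The NSC-only share was 30.9% for ribosomal protein and 22.4% for proteasome genes, beside 16.4% of all genes. The share with a peak in all 4 libraries was 13.6% and 14.3%, beside 6.01% of all genes.

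Peak strength is given as the authors' −log10 q, which sets a peak against the local background of its own library and ranks peaks within 1 list only. At the called splicing factor genes the median of the strongest gene-end peak was 5.74, 7.36, 11.6 and 10.3 in ESC1, ESC2, NSC1 and NSC2. Over all called genes it was 4.93, 6.90, 7.86 and 7.17, so the splicing factor median was the higher one within each list. Of the called splicing factor genes, 2 of 16, 12 of 43, 20 of 61 and 18 of 55 had a peak among the strongest 10% of its list. For all called genes these shares were 6.92%, 18.2%, 19.6% and 18.1%, against 12.5%, 27.9%, 32.8% and 32.7% here. Without RBM39, which was chosen by name, the shares were 6.67%, 26.2%, 31.7% and 31.5%, so in ESC1 the share above that of all genes rests on RBM39. The HNRNP family held many of the strong peaks: 6 of its 15 called genes reached the strongest 10% in ESC2, 10 of 16 in NSC1 and 10 of 17 in NSC2.

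Promoter sequence is shown for 5 of the members called in all 4 libraries, picked after their values were seen as examples of the DNA on which these peaks lie, and for SRSF12, a gene with a promoter rich in CpG and no gene-end peak in any library. The sequences are the 250 bases before the transcription start, 5′ to 3′ on the strand of the gene, from the RefSeq promoter table of GRCh38.p14. Capitals mark CCAAT or its reverse complement ATTGG, the letters bound by NF-Y, and GGAAG or CTTCC, a core of sites bound by ETS factors. The windows are chr7:26200747-26200996 for HNRNPA2B1, chr14:21269443-21269692 for HNRNPC, chr4:82373992-82374241 for HNRNPD, chr9:83980616-83980865 for HNRNPK, chr2:24076327-24076576 for SF3B6 and chr6:89118072-89118321 for SRSF12, all on the minus strand.
HNRNPA2B1: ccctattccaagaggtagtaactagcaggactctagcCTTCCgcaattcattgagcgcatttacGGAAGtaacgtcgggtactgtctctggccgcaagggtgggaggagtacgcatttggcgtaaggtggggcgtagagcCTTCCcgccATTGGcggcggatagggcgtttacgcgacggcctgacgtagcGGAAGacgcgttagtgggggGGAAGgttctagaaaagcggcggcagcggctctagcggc
HNRNPC: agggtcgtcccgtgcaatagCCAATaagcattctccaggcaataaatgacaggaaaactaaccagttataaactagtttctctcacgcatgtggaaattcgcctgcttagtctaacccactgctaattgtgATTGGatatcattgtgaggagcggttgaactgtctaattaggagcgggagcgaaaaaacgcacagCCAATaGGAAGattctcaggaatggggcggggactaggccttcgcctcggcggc
HNRNPD: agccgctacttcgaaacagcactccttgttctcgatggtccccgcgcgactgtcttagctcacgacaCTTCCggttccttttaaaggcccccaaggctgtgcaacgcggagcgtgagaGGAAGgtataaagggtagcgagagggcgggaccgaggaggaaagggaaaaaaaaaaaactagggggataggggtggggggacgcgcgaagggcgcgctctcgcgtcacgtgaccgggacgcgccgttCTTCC
HNRNPK: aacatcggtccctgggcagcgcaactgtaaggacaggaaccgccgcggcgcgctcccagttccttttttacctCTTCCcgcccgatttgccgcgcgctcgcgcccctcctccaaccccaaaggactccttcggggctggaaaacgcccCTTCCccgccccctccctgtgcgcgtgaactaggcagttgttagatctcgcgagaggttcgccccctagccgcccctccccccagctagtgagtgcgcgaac
SF3B6: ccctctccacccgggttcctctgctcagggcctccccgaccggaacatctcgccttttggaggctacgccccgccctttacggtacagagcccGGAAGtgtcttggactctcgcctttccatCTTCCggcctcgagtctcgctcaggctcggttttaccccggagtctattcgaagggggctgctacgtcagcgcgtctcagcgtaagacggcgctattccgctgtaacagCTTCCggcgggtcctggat
SRSF12: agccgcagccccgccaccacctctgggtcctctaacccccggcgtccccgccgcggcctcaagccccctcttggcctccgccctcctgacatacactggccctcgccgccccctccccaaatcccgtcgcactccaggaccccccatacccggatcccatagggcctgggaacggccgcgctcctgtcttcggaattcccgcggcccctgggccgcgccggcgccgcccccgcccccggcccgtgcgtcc
HNRNPA2B1 has 5 GGAAG matches and 1 CCAAT match, HNRNPC has 1 and 3, and SRSF12 has neither. HNRNPD, HNRNPK and SF3B6 have 3, 2 and 3 GGAAG matches and no CCAAT. The SRSF12 window holds 28 CpG, more than the 24, 12, 26, 25 and 24 of the other windows in the order printed.

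Over all members, promoters were rich in CpG, and a GGAAG match was common with or without a peak. An entry was found for 64 of the 74 genes, RBM39 not among them. The median was 22.5 CpG in 250 bases, beside 17 over 15100 promoters of all autosomal genes in the table, while the GC content was 61.6% beside 62.4%. GGAAG on either strand was present in 48 promoters (75%, beside 67.4% of all), CCAAT in 28 (43.8%, beside 34.2%), and GGGCGG or CCGCCC, letters bound by Sp factors, in 36 (56.3%, beside 56.1%). TGCGCA, which reads alike on both strands and is part of NRF1 sites, was present in 7 (10.9%, beside 8.95%), and TATAAA or TTTATA in 5 (7.81%, beside 9.42%). Each motif was counted on its own, so matches of different motifs may overlap. Of the 13 promoters of genes called in all 4 libraries, 12 held GGAAG (92.3%, beside 74.0% for all genes called in all 4). In the same comparison 6 held CCAAT (46.2%, beside 53.6%) and none held TGCGCA (0%, beside 13.8%). The 10 promoters of members with no gene-end peak had a median of 12.5 CpG, with a range of 3 to 34, beside a median of 9 for all genes with none. The low end includes HNRNPCL1, HNRNPCL2 and HNRNPCL4 at 4, 6 and 3, near-identical copies at which reads may not map uniquely. GGAAG was held by 7 of these 10 promoters (70%, beside 64.1% of all genes with no gene-end peak), so SRSF12, which lacks it, is not typical of them. A match describes letters and not binding of a factor.

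Among the proteins of the snRNPs themselves, 11 of 12 SNRP genes had a gene-end peak in at least 1 library, with 3, 8, 11 and 9 called in ESC1, ESC2, NSC1 and NSC2. Over all autosomal protein-coding genes the shares in these libraries were 6.8%, 23.2%, 43.5% and 38.7%. SNRPD2 and SNRPE encode Sm proteins, which form the ring around the RNA of most spliceosomal snRNPs, and SNRPA encodes a U1 snRNP protein that binds U1 RNA. All 3 were called in all 4 libraries. In ESC1, ESC2, NSC1 and NSC2 the −log10 q was 6.04, 16.7, 28.2 and 23.2 at SNRPD2. It was 4.50, 16.5, 26.2 and 19.2 at SNRPA. The values at SNRPE were 3.41, 14.6, 7.95 and 6.45. These genes were thus marked in both cell types. The Sm genes SNRPB, SNRPD3, SNRPF and SNRPG were called in ESC2 and both NSC libraries. Some of these calls were weak, with 1.83 at SNRPD3 and 2.60 at SNRPG in ESC2 and 1.93 at SNRPF in NSC2. The NSC2 summit at SNRPF lay 583 bp inside the gene, and its peak did not overlap those of ESC2 and NSC1. SNRPC, a U1 protein that helps recognise the 5′ splice site, and SNRPA1, a U2 protein, were NSC-only, at 8.06 and 7.68 for SNRPC and 5.64 and 5.70 for SNRPA1 in NSC1 and NSC2. SNRPD1 was called in NSC1 alone at 11.2, and SNRPB2 in ESC2 and NSC1. Without ESC1, 7 SNRP genes had a peak in all remaining libraries, and without ESC2, 6 were NSC-only.

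The SF3 genes, whose products hold U2 snRNP on the branch site, were all called in NSC1 (9 of 9) and 8 of 9 in NSC2, against 2 in ESC1 and 4 in ESC2. The shares over all genes had the same order of libraries, at 43.5% in NSC1, 38.7% in NSC2, 6.8% in ESC1 and 23.2% in ESC2. SF3B6, a small protein that lies at the branch-site adenosine, was the only SF3 gene with a 5′ peak in all 4 libraries, at 29.7, 51.9, 23.5 and 16.9 in ESC1, ESC2, NSC1 and NSC2. Its peak ranked among the strongest 4.37%, 1.19%, 4.57% and 8.09% of these lists, so it was a strong site in both cell types. SF3B1, the largest SF3B subunit and the target of several splicing inhibitors, was called in ESC2, NSC1 and NSC2 at 7.36, 8.61 and 4.40, as were SF3A3 and SF3B5. SF3A2, SF3A1 and SF3B3 were NSC-only. SF3A2 had 23.1 in NSC1 and 12.7 in NSC2, SF3A1 had 3.19 and 7.30, and SF3B3 had 2.61 and 3.91. SF3B4 was called in NSC1 alone. SF3B2 had peaks of 10.0 and 8.29 at its 5′ end in NSC1 and NSC2, but in ESC1 a peak of 2.41 at its 3′ end, the only case among members of known strand in which the strongest gene-end peak lay at a 3′ end. Without ESC1, 4 SF3 genes had a peak in all remaining libraries, and without ESC2, 2 did and 6 were NSC-only.

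Of the 3 U2AF genes, 1 was called in ESC2 and 2 in each NSC library. All genes stood at 23.2% in ESC2, 43.5% in NSC1 and 38.7% in NSC2. U2AF2 encodes the large subunit that binds the polypyrimidine tract, and its peak had 3.08 in ESC2, 16.0 in NSC1 and 16.1 in NSC2. U2AF1L4, a relative of the small subunit, was NSC-only at 19.0 and 12.1. In ESC2 a peak lay 1382 bp from the end of U2AF1L4, outside the window, so with windows of 2500 bp no U2AF gene was NSC-only. U2AF1, the small subunit that reads the AG of the 3′ splice site, had no gene-end peak, and since it has a near-identical copy its status is uncertain. Without ESC1, 1 U2AF gene had a peak in all remaining libraries, and without ESC2, 2 were NSC-only.

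The PRPF genes were called in 2, 6, 11 and 9 of 12 cases in ESC1, ESC2, NSC1 and NSC2. All genes stood at 6.8%, 23.2%, 43.5% and 38.7% there. PRPF4 and PRPF31, both proteins of the U4/U6 snRNP, had peaks in all 4 libraries. The −log10 q was 5.44, 8.69, 14 and 11.2 at PRPF4 and 3.07, 6.90, 7.53 and 8.76 at PRPF31. Both were of middling rank, PRPF31 within the strongest 63.3%, 28.6%, 33.2% and 25.2% of its lists. PRPF8, the protein that cradles the catalytic RNA, was called in ESC2, NSC1 and NSC2 at 2.98, 7.85 and 13.6. PRPF38A, a protein of the activating spliceosome, had 15.2, 12.1 and 10.6 in the same libraries. PRPF19, the ubiquitin ligase that joins the spliceosome at activation, was called in the same 3 libraries. PRPF39, PRPF38B and PRPF6 were NSC-only. Their NSC1 and NSC2 values were 7.29 and 6.70 at PRPF39, 6.64 and 7.08 at PRPF38B and 2.86 and 1.73 at PRPF6. PRPF3 and PRPF40B were called in NSC1 alone, at 2.67 and 2.38, low in that list. Without ESC1, 6 PRPF genes had a peak in all remaining libraries, without ESC2, 7 were NSC-only, and without NSC2, 5 were.

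Among the SR proteins, 2, 8, 11 and 9 of 12 SRSF genes were called in ESC1, ESC2, NSC1 and NSC2. All genes stood at 6.8%, 23.2%, 43.5% and 38.7% there. SRSF5 and SRSF7 had peaks in all 4 libraries. The −log10 q was 4.37, 14.8, 8.04 and 7.63 at SRSF5 and 3.41, 10.3, 9.81 and 13.4 at SRSF7. In both genes the strongest peaks of the 4 libraries had no base common to all; the NSC2 summit at SRSF5 lay 706 bp inside the gene, and that of ESC1 86 bp upstream of it. The strongest SRSF site in NSC was SRSF10, a regulator that can repress splicing, with 31.3 in NSC1 and 31.2 in NSC2, within the strongest 2.16% and 1.75% of these lists. It had 13.3 in ESC2 and no peak in ESC1. SRSF1, SRSF2, SRSF3, SRSF4 and SRSF11 followed the same pattern of libraries. SRSF2 had 2.02, 14.4 and 15.9 in ESC2, NSC1 and NSC2, and SRSF3 had 11.4, 10.4 and 5.14. The first is near the weak end of the ESC2 list and the second well inside it, so genes of 1 class differed in strength within that list. SRSF9 was the only NSC-only member, at 5.01 and 4.61. SRSF6 and SRSF8 were called in NSC1 alone, and SRSF12, a relative of SRSF10 whose promoter is printed above, in no library. Without ESC1, 8 SRSF genes had a peak in all remaining libraries, without ESC2, 7 were NSC-only, and without NSC2, 3 were.

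Of the 25 hnRNP genes, 6, 15, 16 and 17 were called in ESC1, ESC2, NSC1 and NSC2, beside 6.8%, 23.2%, 43.5% and 38.7% of all genes. As the largest family, with 25 of the 74 members, they held 6 of the 15 sites called in all 4 libraries. These were HNRNPA1, HNRNPA2B1, HNRNPC, HNRNPD, HNRNPH3 and HNRNPK. HNRNPA1 and HNRNPA2B1 encode the abundant A/B proteins that counter SR proteins. In ESC1, ESC2, NSC1 and NSC2 HNRNPA1 had 7.74, 30.8, 39.2 and 42.4, and HNRNPA2B1 had 6.04, 17.8, 37.8 and 44.9. HNRNPK, which binds C-rich RNA, had 8.43, 28.6, 46 and 44.1. HNRNPD, a protein of AU-rich elements also known as AUF1, had 8.32, 24.7, 57.6 and 39.2. Both lay within the strongest 1% of each NSC list. HNRNPC, which binds U tracts, had 10.4, 32.7, 23.4 and 24.4, and HNRNPH3, a protein of G-rich RNA, had 2.50, 16.9, 28.3 and 21.8. At HNRNPH3 all 4 summits lay inside the gene, 279, 284, 282 and 278 bp past the start. The same position was thus marked in both cell types. At HNRNPC the strongest peaks of the 4 libraries shared 510 bp (chr14:21269379-21269888), and at HNRNPD 418 bp (chr4:82374050-82374467), and both stretches overlap the printed promoters.

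A further 8 hnRNP genes were called in ESC2 and both NSC libraries: HNRNPA0, HNRNPA3, HNRNPAB, HNRNPDL, HNRNPLL, HNRNPR, HNRNPU and HNRNPUL2. HNRNPDL, a close relative of HNRNPD, had 3.26 in ESC2, 27.6 in NSC1 and 20.8 in NSC2. HNRNPU, a nuclear scaffold protein, had only 1.32 in ESC2, where it ranked within the weakest 1% of the list, and 11.6 and 10.2 in NSC. Its ESC2 peak lay 582 bp upstream and did not overlap the NSC peaks. HNRNPF, a protein of G-rich RNA, was NSC-only at 6.92 and 7.08, as was HNRNPM at 9.48 and 3.63. HNRNPA1L2, a relative of HNRNPA1, was called in ESC2 and NSC2. Without ESC1, 14 hnRNP genes had a peak in all remaining libraries, and without ESC2, 10 were NSC-only.

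**Figure D2:**
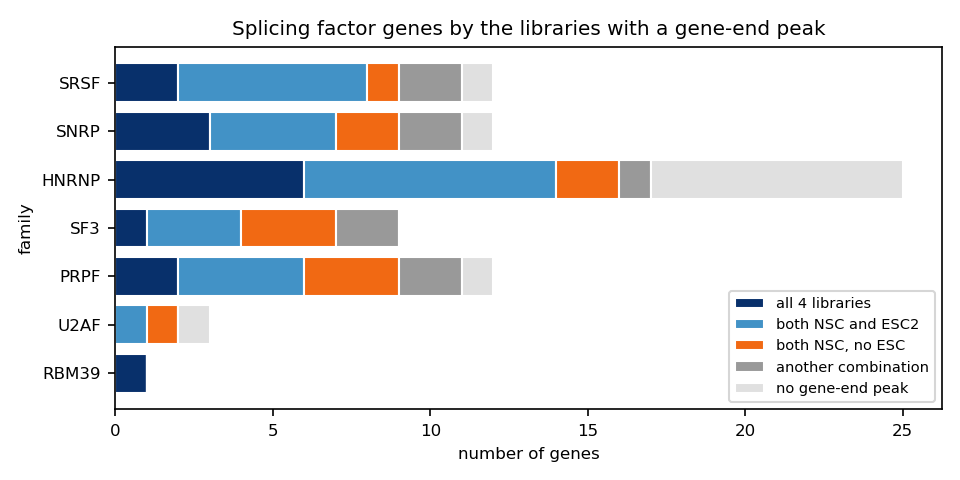
Number of genes (horizontal axis) of each family (vertical axis), split by the libraries that had a gene-end peak. All 9 SF3 genes had a peak in some library, and no family had a gene with peaks in ESC only. The HNRNP bar, the longest with 25 genes, has the most genes with a peak in all 4 libraries (6) and the most with none (8).

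RBM39 had the strongest gene-end peak of the 74 genes in each of the 4 libraries. Its product is an SR-like partner of U2AF that is degraded in cells treated with aryl sulfonamides. The −log10 q was 29.7 and 80.1 in the ESC libraries and 121 and 127 in the NSC libraries, with the authors' fold enrichment over the local background of 10.6, 14.1, 17.9 and 19.2. It ranked 176 of 4054 peaks in ESC1, 68 of 12159 in ESC2, 13 of 28887 in NSC1 and 19 of 23942 in NSC2. The 4 peaks shared 580 bp (chr20:35742163-35742742), across the end of the gene at position 35742260. The 4 summits lay 107, 126, 151 and 96 bp from that end, so the site was the same in both cell types.

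Some members without a gene-end peak were bound at a start inside the gene. The 12 genes with none were HNRNPA1L3, HNRNPCL1, HNRNPCL2, HNRNPCL3, HNRNPCL4, HNRNPH1, HNRNPL, HNRNPUL1, PRPF18, SNRPN, SRSF12 and U2AF1. The HNRNPCL genes and HNRNPA1L3 are near-identical copies at which reads may not map uniquely, and their status is uncertain. HNRNPL, which binds CA repeats, had a peak in all 4 libraries within 1 kb of another transcript start of the table, with 26.2, 45.8, 45.6 and 36.8 in ESC1, ESC2, NSC1 and NSC2. These summits lay 1790, 1783, 2189 and 2186 bp inside its outer 5′ end, outside the window of its outer ends. HNRNPUL1 had such peaks of 19.6, 18.2 and 12.7 in ESC2, NSC1 and NSC2, and HNRNPH1 of 7.84, 5.18 and 6.10. SNRPN, an imprinted gene for an Sm protein used in the brain, had peaks of 2.64, 4.37 and 4.19 within 1 kb of an inner start in the same 3 libraries, and of 8.13 and 4.94 at another start in ESC2 and NSC1. PRPF18, a factor of the catalytic steps of splicing, had peaks only in NSC, with the strongest 28019 bp past the start in NSC1 (18.5) and 28923 bp past it in NSC2 (8.09). When any transcript start of the table was also accepted, 17, 47, 65 and 59 genes were called in ESC1, ESC2, NSC1 and NSC2, beside 7.38%, 25%, 46.3% and 41.4% of all genes, and 16 were called in all 4. Just inside the 1 kb limit lay SF3B2 in ESC1 at 617 bp and SRSF8 in NSC1 at 738 bp. Just outside lay HNRNPUL1, at 1134 to 1257 bp, and HNRNPL, at 1522 to 1602 bp.

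Peaks at splicing factor genes lay almost always at the promoter end. The strand was known for 64 members, and the strongest peak was at the 5′ end in 13 of 14 in ESC1, 39 of 39 in ESC2, 53 of 53 in NSC1 and 49 of 49 in NSC2. Over all genes these shares were 93.8%, 93.1%, 94.6% and 94.7%. The median summit lay 163, 127, 89 and 57 bp upstream of the start in ESC1, ESC2, NSC1 and NSC2, beside 136, 108, 59 and 64 bp for all genes. Summits fell upstream of the start in 84.6%, 89.7%, 79.2% and 81.6% of the members, beside 76.1%, 74.2%, 66.3% and 68.6% of all genes. The strongest peaks of the libraries shared at least 1 base in 11 of the 15 genes called in all 4 (73.3%, beside 87.7% of all genes of that class), over 200 to 580 bp. The exceptions were HNRNPA1, PRPF31, SRSF5 and SRSF7. The same held for 22 of the 26 genes called in ESC2 and both NSC libraries (84.6%, beside 83.0%) and for 9 of the 12 NSC-only genes (75%, beside 88.6%).

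**Figure D3:**
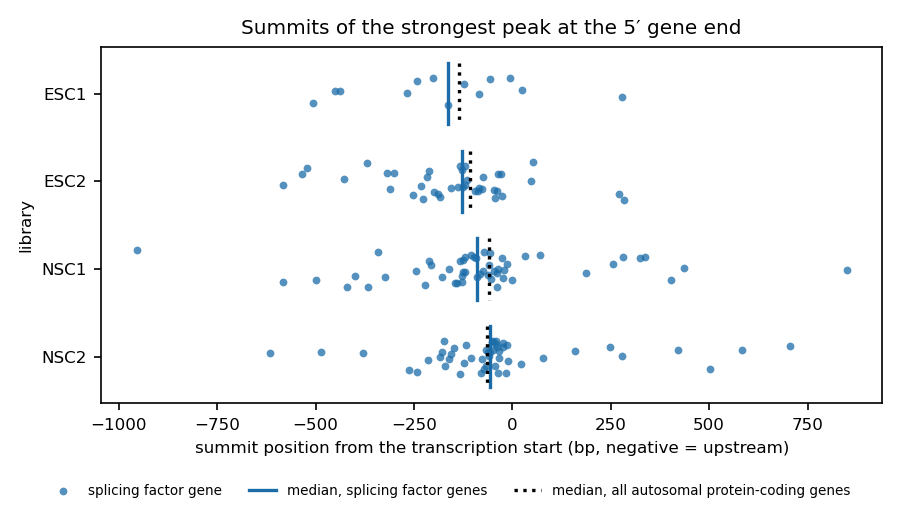
Distance of the summit of the strongest 5′ gene-end peak from the transcription start in bp (horizontal axis, negative upstream) for each splicing factor gene (points) in each library (vertical axis; height within a row is only for visibility). Solid lines mark the median of these genes (163, 127, 89 and 57 bp upstream in ESC1, ESC2, NSC1 and NSC2) and dotted lines the median of all autosomal protein-coding genes; most points lie upstream and close to the start.

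Some of these genes have a neighbour at the same end, so the peak cannot be given to 1 gene alone. Of the 62 members with a peak in any library, 25 shared it with the end of another protein-coding gene (40.3%, beside 33.2% of all genes with a peak) and 34 with that of any gene (54.8%, beside 51.9%). Of the 15 members called in all 4 libraries, 9 shared it with a protein-coding gene (60%, beside 46.9%). HNRNPA2B1 shares its peak with CBX3 and HNRNPA1 with CBX5, both genes for heterochromatin proteins. The other pairs were HNRNPK with RMI1, HNRNPH3 with PBLD, PRPF4 with CDC26, PRPF31 with TFPT, SNRPA with ACTMAP and SNRPD2 with QPCTL, and SF3B6 shares its peak with both FAM228B and TP53I3. Which gene of such a pair a peak belongs to was not tested.

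The rest of the splicing machinery showed the same order of libraries, which was also the order over all genes. Over 7 lists with 154 autosomal genes, 21, 64, 117 and 106 had a gene-end peak in ESC1, ESC2, NSC1 and NSC2 (13.6%, 41.6%, 76.0% and 68.8%). The shares of all autosomal protein-coding genes were 6.8%, 23.2%, 43.5% and 38.7%, and these stand beside each list below as well. Peaks in all 4 libraries were found at 20 of the 154 genes, in ESC2 and both NSC at 42, and in NSC only at 37. These classes held 6.01%, 12.7% and 16.4% of all genes. Of 29 other snRNP proteins, 3, 11, 23 and 22 were called. LUC7L2, a U1-associated protein, DDX42, a helicase of the U2 particle, and PHF5A, an SF3B subunit, were called in all 4. TXNL4A and SNRNP25 were the NSC-only genes of highest rank there. Of 19 LSm and SMN assembly genes, 3, 10, 14 and 12 were called. PRMT5 and WDR77, which together methylate Sm proteins, had 8.11 and 2.78 in ESC1, 27.8 and 28.7 in ESC2, 30.4 and 29.9 in NSC1 and 27.8 and 27.4 in NSC2, and STRAP of the SMN complex was called in all 4 as well. GEMIN7 was the NSC-only gene.

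Of 26 genes of the catalytic core, the PRPF19 complex and the helicases, 4, 10, 20 and 20 were called in ESC1, ESC2, NSC1 and NSC2. The helicase genes DHX38 and DHX8 and the factor CWC25 led those called in all 4, and BUD31 and DHX15 the NSC-only genes. All 9 exon junction complex genes were called in both NSC libraries, with 2 in ESC1 (PNN and ACIN1) and 7 in ESC2, which are 22.2%, 77.8%, 100% and 100% in ESC1, ESC2, NSC1 and NSC2. RNPS1 and SAP18 were the NSC-only members. Of 19 SR-related proteins and SR protein kinases, 2, 6, 15 and 11 were called, SON and SCAF1 in all 4 libraries. SRRM1, a coactivator that bridges SR proteins, was NSC-only at 22.1 and 14.7, followed by SCAF4. Of 24 other RNA-binding regulators, 6, 15, 22 and 22 were called (25%, 62.5%, 91.7% and 91.7%). RBM15 had 19.9, 54.9, 60.9 and 61 and FUBP1 had 15.1, 56.4, 64.0 and 72.2 in ESC1, ESC2, NSC1 and NSC2, and TIA1 came next in rank. EWSR1, an RNA-binding protein, was NSC-only at 8.49 and 7.98.

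The list drawn up for tissue-restricted regulators, which also holds widely used ones such as PTBP1 and KHDRBS1, had lower shares than each of the other 6 lists in every library. This difference was not tested. Of its 28 genes, 1, 5, 14 and 10 had a gene-end peak in ESC1, ESC2, NSC1 and NSC2 (3.57%, 17.9%, 50% and 35.7%), close to the shares of all genes, and 12 had none. None was called in all 4 libraries. Of the 28 genes, 5 were NSC-only, beside 16.4% of all genes. NOVA1, a splicing regulator of neurons, was NSC-only at 24.2 and 19.8, and MBNL2, known in brain, at 15.3 and 11.5. NOVA2, MBNL1, RBFOX1, RBFOX3, ELAVL3 and ELAVL4 of the same list had no gene-end peak in any library. PTBP2 and ELAVL2 had one in NSC1 alone, so the list shows no general neural pattern. ESRP1, an epithelial splicing regulator active in pluripotent cells, was the one ESC-only gene among the 154, with 8.91 in ESC1 and 17.8 in ESC2. It was named because it was the only such gene, after its values were seen.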

How the data were processed

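BAF45D CUT&Tag peak lists of 2 ESC and 2 NSC libraries were used. Per the submitters' processing notes, the tools were BWA 0.7.12, Trimmomatic and FastQC and the build was hg38. Per the file headers, the authors called peaks for each library alone with MACS2 2.1.0.20150420, with no control, with reads shifted by -100 bp and extended to 200 bp, and kept peaks at q up to 0.05. The deposited pileup at the summit is a signal value of that library. The deposited −log10 q and −log10 p values and the deposited fold (ratio to the local background) also refer to 1 library, so strengths were ranked within a list only. A list holds no signal below threshold, so absence of a peak says only that the threshold was not passed. Background of the assay from an untargeted antibody was not analysed here.

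Entries with the same interval were joined, and a gene was called when any base of a peak lay within 1 kb of either end of the gene in a RefSeq table of GRCh38.p14 (chromosomes 1 to 22). Python 3.11.15, pandas 2.3.3, numpy 2.4.6 and scipy 1.17.1 were used, and the window script was tested on simulated data. Counts were compared between cell types by the exact permutation test over libraries, and no test was run over genes. The permutation p-value reflects only how the counts of the 4 libraries are ordered by cell type and does not measure their spread, which may be technical. The strand and promoter sequence came from a RefSeq promoter table that holds 64 of the 74 genes. The members, lists and rules were chosen with earlier results of these data known. Genes were named by class: all members called in all 4 libraries, up to 4 NSC-only members of each family by rank, members with no peak, and up to 3 (all 4 libraries) and 2 (NSC-only) genes of each other list. Further members were named after their values were seen, and some genes that were counted are not reported here by name. Alternatives were windows of 500 and 2500 bp, the summit inside the window, a −log10 q of at least 5, equal list length, the 5′ end only and leaving out each library. Also tried, chosen after seeing the data, were any transcript start, leaving out the HNRNPCL genes and HNRNPA1L3, and strength without RBM39.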

Additional observations from a re-analysis of the deposited data

How the results depend on the processing

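No paired analysis was possible because the labels tie no ESC library to an NSC library. The counts were compared by an exact permutation test over libraries, which with 2 libraries per cell type cannot reach 0.05. Windows of 500 bp, the summit rule, the 5′ end only, any transcript start and leaving out the near-identical copies moved no count per library, and no count of genes called in all 4 libraries or NSC-only, by over 1.5 times. Genes with no gene-end peak went from 12 to 8 with any transcript start and to 7 without the near-identical copies, and such HNRNP genes from 8 to 5 and 3. With windows of 500 bp SRSF8 lost its peak, SNRPF its NSC2 peak and SF3B2 its ESC1 peak. With windows of 2500 bp the NSC-only U2AF genes went from 1 to 0, since U2AF1L4 then gained ESC2.

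Peaks of −log10 q of at least 5 left 9 genes in ESC1, 27 in ESC2, 9 called in all 4 libraries and 19 NSC-only, beside 3.36%, 15.4%, 3.06% and 11.1% of all genes. NSC-only here means no ESC peak that reached the cut, and a weaker ESC peak may be listed. By family this gave 0 SRSF, 1 SNRP and 1 PRPF gene called in all 4, and 3 SRSF, 4 SNRP, 5 HNRNP and 2 U2AF genes NSC-only; 11 genes of the other splicing lists were called in all 4.

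At equal list length ESC2, NSC1 and NSC2 had 25, 26 and 25 genes, the difference between cell types was 5, and 7 genes were NSC-only and 3 ESC-only. The ESC-only genes were 1 SRSF, 1 SNRP and 1 PRPF gene. No SRSF or PRPF gene was then called in all 4 (0 and 0), the NSC-only genes were 0 SNRP, 1 SF3, 0 PRPF and 2 U2AF genes, and the other splicing lists had 12 NSC-only and 4 ESC-only genes. The number called in all 4 was 10, beside 3.80% of all genes.

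Leaving out 1 library at a time gave a difference of 15 to 42. Genes called in all remaining libraries ranged from 15 to 41, with 2 to 8 SRSF, 3 to 7 SNRP, 6 to 14 HNRNP, 1 to 4 SF3, 2 to 6 PRPF and 0 to 1 U2AF genes. NSC-only genes ranged from 12 to 38, with 1 to 7 SRSF, 2 to 6 SNRP, 2 to 10 HNRNP, 3 to 6 SF3, 3 to 7 PRPF and 1 to 2 U2AF genes. The highest values came without ESC1 (called in all) and without ESC2 (NSC-only); the cause was not tested. Of the 74 members, 35 had another number of libraries with a peak under the stricter q and 45 with equal lists.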
